A study of Mus musculus with 4 samples.

Results

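The 10 genes described here are Vegfa, its receptors Kdr and Flt1, the angiopoietin Angpt2 with its receptor Tek, and the endothelial genes Pecam1, Cdh5, Emcn, Ehd3 and Plvap, taken by name from the 32285 genes of the count matrices. They were measured by Visium, which captures RNA from a tissue section on a grid of barcoded spots, each covering several cells. The samples were 4 sections, 10 µm thick, of left kidneys from male WT C57BL/6J mice aged 7 to 8 weeks. Sections normal 1 and normal 2 came from control mice, labelled Normal ctrl with no word on sham surgery. Sections ischemic 1 and ischemic 2 came from mice whose 2 renal pedicles had been clamped for 30 min, with the kidney taken 24 h after the ischemia. All 4 lay on 1 slide. The labels do not say which mouse gave each section, so sections of 1 condition may share a mouse, and p-values measure only the spread between sections.

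Vascular endothelial growth factor A is a secreted ligand that keeps endothelial cells alive and their capillaries fenestrated, and in kidney it is made mainly by podocytes and tubules. KDR is the receptor that carries most of its signal, while FLT1 binds it tightly with little signalling of its own and is often regarded as a decoy. TEK is the receptor of the angiopoietins, and ANGPT2 acts on it mostly as a context-dependent antagonist of ANGPT1. PECAM1 and CDH5 are junction proteins of most endothelial cells, EMCN is a sialomucin of capillaries and veins, EHD3 is a trafficking protein typical of the glomerular endothelium, and PLVAP forms the diaphragms of fenestrated capillaries outside the glomerulus.

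The sections held 25957128 to 44528078 UMIs (unique molecular identifiers, each standing for 1 captured RNA molecule) over 2401 to 2682 tissue spots, 10312 spots in all. Every member was detected in every section, with 239 UMIs at the fewest (Angpt2, ischemic 2) and 5534 at the most (Plvap, ischemic 1). The injury markers Havcr1 and Lcn2 matched the labels, at 1.17 and 2.14 CPM (counts as a rate of the library total) for Havcr1 in normal sections and at 1288 and 1280 CPM in ischemic sections. Markers of other cells also moved with the condition. The summed level of 5 red cell genes was 8905 and 9055 CPM (unscaled) in normal sections against 765 and 1618 in ischemic sections, and that of 4 neutrophil genes was 1.39 and 2.06 against 176 in both ischemic sections. Their part in the results on the endothelial genes was not tested. In sections of whole tissue, fewer endothelial cells and less RNA per cell cannot be told apart.

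Sequence upstream of the ligand gene and both VEGF receptor genes is shown because these 3 genes are the ligand and receptors whose levels are compared throughout. RefSeq (GRCm38.p6, the patched form of the mm10 build named for the files) gave windows for 6 of the 10 members, and the 250 bases before the annotated start are printed 5′ to 3′. The genes lie on the minus strand at chr17:46016993-46032369 (Vegfa), chr5:75932827-75978458 (Kdr) and chr5:147561604-147726011 (Flt1) in GENCODE M21. Capitals mark the core of a hypoxia response element, ACGTG or GCGTG on either strand.
Vegfa, chr17:46032378-46032627, minus strand: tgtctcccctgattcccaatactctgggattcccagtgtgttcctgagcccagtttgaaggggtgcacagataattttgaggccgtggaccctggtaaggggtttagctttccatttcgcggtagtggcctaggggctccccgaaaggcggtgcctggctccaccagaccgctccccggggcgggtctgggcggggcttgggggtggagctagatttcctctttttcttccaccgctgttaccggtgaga
Kdr, chr5:75978456-75978705, minus strand: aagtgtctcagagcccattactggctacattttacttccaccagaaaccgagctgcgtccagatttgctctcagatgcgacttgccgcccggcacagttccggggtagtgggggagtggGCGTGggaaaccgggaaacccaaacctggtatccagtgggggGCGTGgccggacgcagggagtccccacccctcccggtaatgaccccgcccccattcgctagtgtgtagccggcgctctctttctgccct
Flt1, chr5:147726012-147726261, minus strand: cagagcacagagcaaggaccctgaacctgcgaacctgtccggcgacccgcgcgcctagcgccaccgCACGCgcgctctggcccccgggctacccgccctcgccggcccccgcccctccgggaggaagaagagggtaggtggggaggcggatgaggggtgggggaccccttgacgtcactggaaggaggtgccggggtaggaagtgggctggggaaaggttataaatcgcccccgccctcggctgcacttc
The Kdr window held 2 such cores and the Flt1 window 1, while the Vegfa window printed held none. A second Vegfa window, chr17:46025164-46025413, held 2, but it lies inside the gene as placed above and not before it. In all, 4 of the 7 windows of the members held at least 1, this one included. Over all windows of this length, 38.6% of 32851 held at least 1 core. GGAAGT, an ETS core with flank, was found on either strand in 2 of the 7 windows of the members and in 19.7% of all windows. These matches describe letters only. Of the other members, Plvap, Cdh5 and Angpt2 overlap an annotated gene on the opposite strand (Gtpbp3, Gm29682 and Mcph1), and since no source states if counting used strand, reads of such pairs may not be told apart.

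Over the whole sections, Flt1, Cdh5, Pecam1 and Plvap were higher in ischemic than in normal kidney and Kdr and Vegfa were lower, so the 2 VEGF receptors changed in opposite directions. Emcn, Tek, Ehd3 and Angpt2 did not pass the test. Counts were summed per section, scaled by TMM (a factor per library that assumes most genes do not change) and tested with edgeR, and adjusted p-values are Benjamini-Hochberg values over the 15305 genes tested. The members' count of 6 of 10 past an adjusted p of 0.05 stood beside a background of 60.6% of all genes tested, 31% higher and 29.7% lower, and the members' median log2 change was 0.05 against 0.04 for all genes.

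Of the ligands, Vegfa was at 45.2 and 60.1 CPM in normal sections and at 38.0 and 38.3 CPM in the ischemic sections. With this scaling both ischemic values lay below both normal values, and the log2 change was -0.46 (SE 0.13, adjusted p = 0.0140). Unscaled, the ischemic values lay between the normal ones, at 41.6 and 42.3 CPM against 37.5 and 59.9 CPM. Leaving out ischemic 1 or ischemic 2 ended the call, with adjusted p of 0.0822 and 0.0769. Angpt2 was at 6.51 and 13.5 CPM in normal sections and at 9.25 and 8.34 CPM in the ischemic sections. Both ischemic values lay between the normal ones, and the log2 change was -0.17 (95% interval -0.79 to 0.46, adjusted p = 0.627). Its direction rested on the normal section used, since it was 0.41 without normal 2 (adjusted p = 0.00594) and -0.61 without normal 1 (adjusted p = 4.72e-06).

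Of the receptors, Flt1 was at 20.1 and 20.4 CPM in normal sections and at 34.9 and 38.9 CPM in ischemic sections. The groups did not overlap, and the 1.82-fold rise (log2 0.86, SE 0.10, adjusted p = 7.09e-05) was the largest among the members. Kdr was at 32.1 and 29.5 CPM in normal sections and at 22.3 and 23.1 CPM in ischemic sections. Here too the groups did not overlap, with a log2 change of -0.44 (SE 0.09, adjusted p = 0.00304) that missed the threshold without ischemic 1 (adjusted p = 0.0681). The ratio of Flt1 to Kdr UMIs needs no scaling between libraries. It was 0.624 (95% interval of counting error 0.569 to 0.685) and 0.693 (0.621 to 0.772) in normal kidney and 1.57 and 1.69 in ischemic kidney, so that Flt1 UMIs were the fewer in both normal sections and the more numerous in both ischemic ones. Tek was at 21.8 and 24.4 CPM against 23.7 and 25.1 CPM, overlapping groups with a log2 change of 0.08 (95% interval -0.15 to 0.30, adjusted p = 0.516).

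Of the 5 endothelial surface and trafficking genes, 3 were higher. Cdh5 was at 12.7 and 17.1 CPM in normal and at 22.2 and 23.7 CPM in ischemic sections (log2 0.63, SE 0.14, adjusted p = 0.00368). Pecam1 was at 27.6 and 33.2 CPM against 41.0 and 45.9 CPM (log2 0.52, SE 0.12, adjusted p = 0.00390), with an adjusted p of 0.0502 without ischemic 2. Plvap was at 119 and 136 CPM against 163 and 189 CPM (log2 0.47, SE 0.13, adjusted p = 0.0115), and lost its call without ischemic 1 (adjusted p = 0.0588) or ischemic 2 (0.235). For these 3 genes both ischemic sections lay above both normal sections. How many of all genes did so was not counted, while 31% of those tested were called higher. Emcn was nearly level at 110, 106, 109 and 112 CPM (log2 0.02, 95% interval -0.22 to 0.26, adjusted p = 0.871). Ehd3 was at 15.6 and 16.3 CPM against 13.2 and 14.0 CPM, with an adjusted p of 0.0746 for a log2 change of -0.23. These scaled groups did not overlap. Unscaled, the ischemic values of Ehd3 (14.4 and 15.4 CPM) lay between the normal ones (12.9 and 16.3 CPM).

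**Figure D1:**
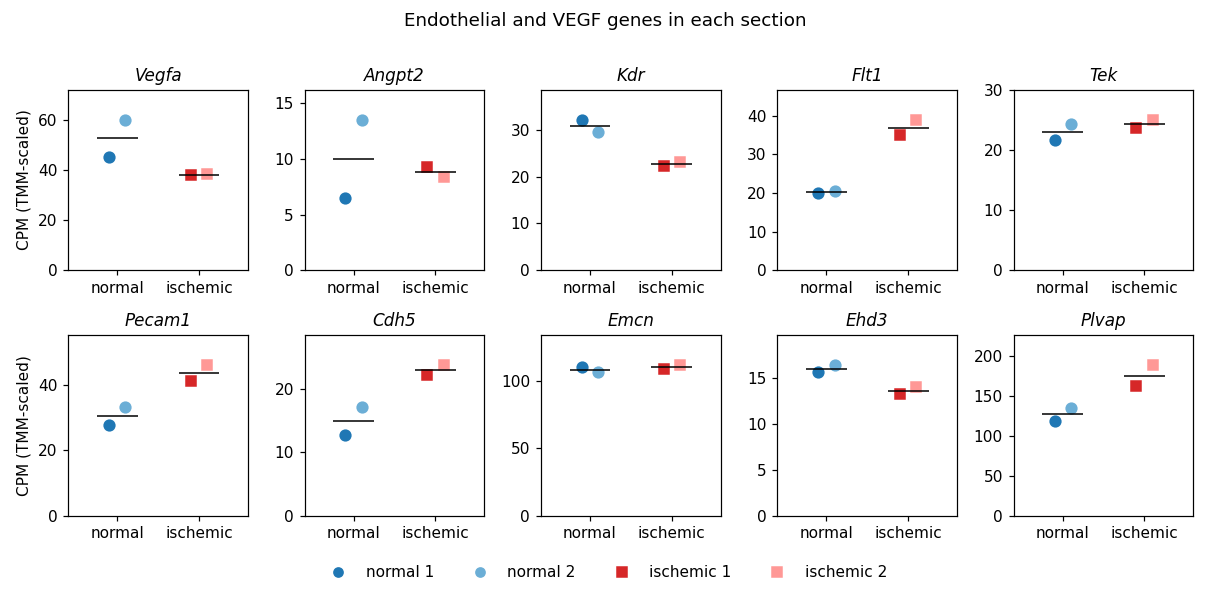
CPM (TMM-scaled, linear axis from 0) of each gene in the 4 sections, with circles for normal and squares for ischemic sections and a line at the mean of each pair. Flt1 sits at 20.1 and 20.4 CPM in normal and at 34.9 and 38.9 CPM in ischemic sections, Kdr moves the other way, and the 2 normal values of Angpt2 lie on either side of the ischemic ones.

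The share of each zone also differed between the sections. Cortex took 45.0% and 43.1% of the spots in normal against 39.7% and 36.6% in ischemic sections, and inner medulla 5.31% and 8.95% against 13.1% and 12.6%. The part of this shift in the whole-section changes was not tested. The scaling mattered for the lower calls. With library size alone in place of TMM, the median log2 change of all genes rose from 0.04 to 0.31 and the share of called genes that were higher from 51.1% to 67.0%. Vegfa was then at -0.21 (adjusted p = 0.351) and Kdr at -0.17 (adjusted p = 0.323), both still below that median, while Emcn, at 0.29, passed (adjusted p = 0.0366). Flt1, Pecam1, Plvap and Cdh5 stayed higher and past the threshold.

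Other genes of the pathway were as divided. The background for all counts of this paragraph is 60.6% of genes called, 31% higher and 29.7% lower. Of 10 further VEGF and angiopoietin genes, 3 were higher and 3 lower, and 4 did not pass (median log2 -0.10). Nrp2, a co-receptor, rose by 0.80 on the log2 scale, Pgf, a ligand of FLT1, by 0.75, and Flt4, the receptor of VEGF-C and VEGF-D, by 0.54. Vegfd fell by 0.82, Angpt1, the agonist ligand of TEK, by 0.71, and Vegfb, another FLT1 ligand, by 0.59. Of 18 pan-endothelial genes that are not members, 7 were higher and 2 lower, and 9 did not pass (median log2 0.21). Tie1 and Ptprb are in both this list and the one before. Ecscr had the largest rise, 1.59, followed by Nos3, the endothelial nitric oxide synthase, at 1.22, while Myct1 fell by 0.57 and Icam2, an adhesion molecule, by 0.42. Of 6 arterial genes, Gja5 rose by 1.23, Vwf fell by 0.83 and the other 4 did not pass. Of 10 other genes that hypoxia is known to induce, as it does Vegfa, Adm (log2 2.36) and Slc2a1 (1.79) were higher, Ndrg1 (-1.58), Bnip3 (-0.88) and Egln1 (-0.44) were lower, and 5 did not pass.

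In normal kidney the members were spread unevenly over the zones. Spots were put into cortex, outer stripe, inner stripe, inner medulla or pelvis by tubular and urothelial marker genes, none of which is a member, and zones of the same section were compared in an edgeR model with section as a block. Angpt2 had the steepest gradient, with 2.89 and 3.05 CPM in the cortex of normal 1 and normal 2, 6.09 and 7.58 CPM in the outer stripe, 19.0 and 44.9 CPM in the inner stripe and 22.9 and 68.8 CPM in the inner medulla. The zones followed this order in both sections, though the 2 sections differed widely in the inner zones. Against cortex the log2 difference was 1.16 (SE 0.29, adjusted p = 0.00579) in the outer stripe, 3.29 (SE 0.26, adjusted p = 7.00e-09) in the inner stripe and 3.89 (SE 0.29, adjusted p = 2.85e-09) in the inner medulla. Tek, the receptor, was at 22.5 and 23.5 CPM in cortex and at 30.3 and 42.8 CPM in the inner stripe, a log2 difference of 0.63 (adjusted p = 0.00244) that became 0.42 without normal 2 (adjusted p = 0.0507). Plvap was 114 and 127 CPM in cortex and 170 and 255 CPM in the inner stripe (log2 0.80, adjusted p = 1.65e-05).

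Vegfa and Kdr ran the other way. Vegfa was at 62.1 and 84.7 CPM in normal cortex, at 39.4 and 53.6 CPM in the outer stripe (log2 -0.66, adjusted p = 6.14e-05), at 47.1 and 77.8 CPM in the inner stripe (log2 -0.26, adjusted p = 0.0883, not past the threshold) and at 33.9 and 40.5 CPM in the inner medulla (log2 -1.003, adjusted p = 2.31e-05). Kdr was at 46.3 and 44.7 CPM in cortex, at 25.7 and 24.5 CPM in the outer stripe (log2 -0.86, adjusted p = 1.78e-06), at 34.4 and 33.6 CPM in the inner stripe (log2 -0.42, adjusted p = 0.00713) and at 22.0 and 18.9 CPM in the inner medulla (log2 -1.18, adjusted p = 9.39e-06). Both sections placed Kdr highest in cortex and second highest in the inner stripe. Against cortex, 1 of 10 members was higher and 4 were lower in the outer stripe (background 23.3%, 12.9% higher and 10.4% lower). In the inner stripe 4 were higher and 1 lower (background 29.2%, 14.4% higher and 14.8% lower). In the inner medulla 6 were higher and 2 lower (background 40.2%, 19.8% higher and 20.4% lower). With library size alone the Kdr difference in the inner stripe was -0.19 (adjusted p = 0.235), as the share of called genes that were higher there went from 49.4% to 76.1%; that share went from 55.2% to 31.5% in the outer stripe and from 49.3% to 78.0% in the inner medulla.

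The normal inner medulla was not a clean class. Pecam1 was at 137 CPM there in normal 1 but at 59.9 CPM in normal 2, and the summed levels of other cells' markers moved with it. The 4 adipocyte genes summed to 2818 and 632 CPM (unscaled) in these 2 sums, the 4 smooth muscle genes to 1988 and 442, and the 5 red cell genes to 50112 and 16055, each higher in normal 1. In the ischemic inner medulla the same sums were 325 and 254, 335 and 236, and 532 and 894. The part of these cells in the Pecam1 and Cdh5 values of the inner medulla was not tested. In the ischemic outer stripe 3 members were higher than in cortex and 2 lower (background 36.9%, 17.3% higher and 19.6% lower). In the ischemic inner stripe 5 were higher and 2 lower (background 49%, 22.9% higher and 26.1% lower), and in the inner medulla 4 and 2 (background 48.1%, 21.9% higher and 26.1% lower). Angpt2 again stood far above cortex, with log2 differences of 2.75 in the inner stripe and 2.86 in the inner medulla.

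**Figure D2:**
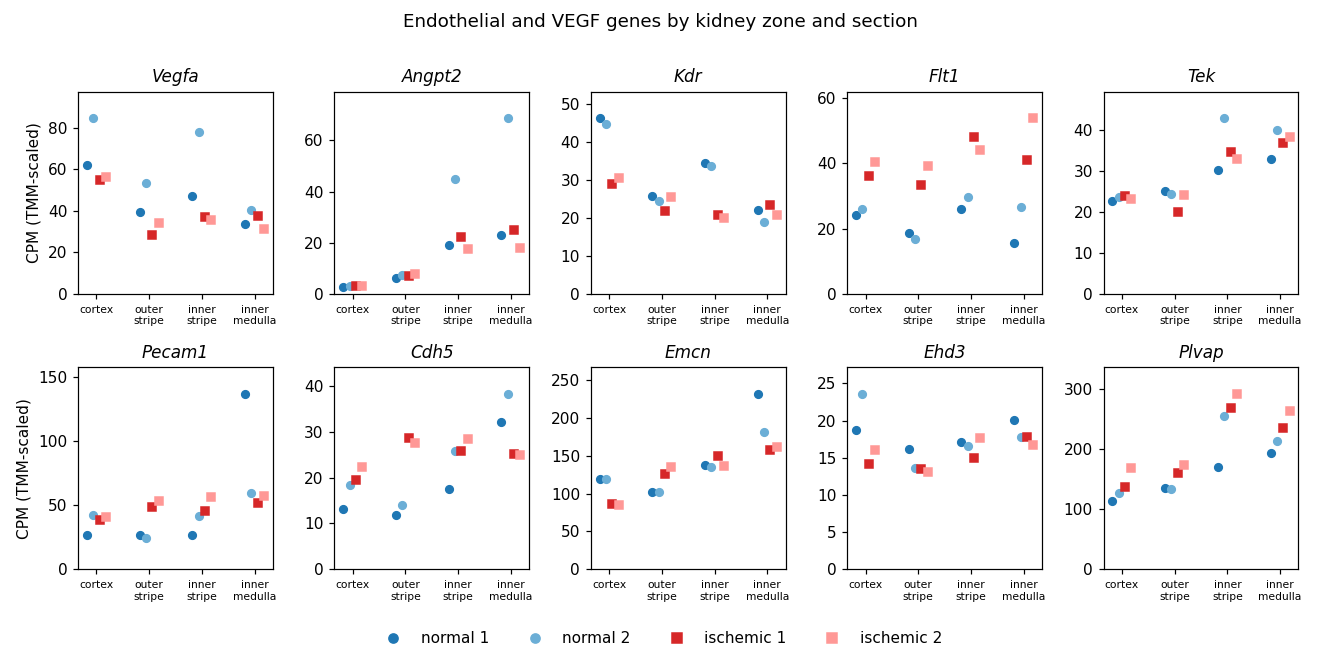
CPM (TMM-scaled over all sums of a section and zone, linear axis from 0) of each gene in 4 kidney zones, with circles for normal and squares for ischemic sections. Angpt2 climbs from about 3 CPM in cortex to between 18.1 and 68.8 CPM in the inner medulla, Kdr and Vegfa are highest in normal cortex, and Flt1 is higher in both ischemic sections in every zone.

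**Figure D3:**
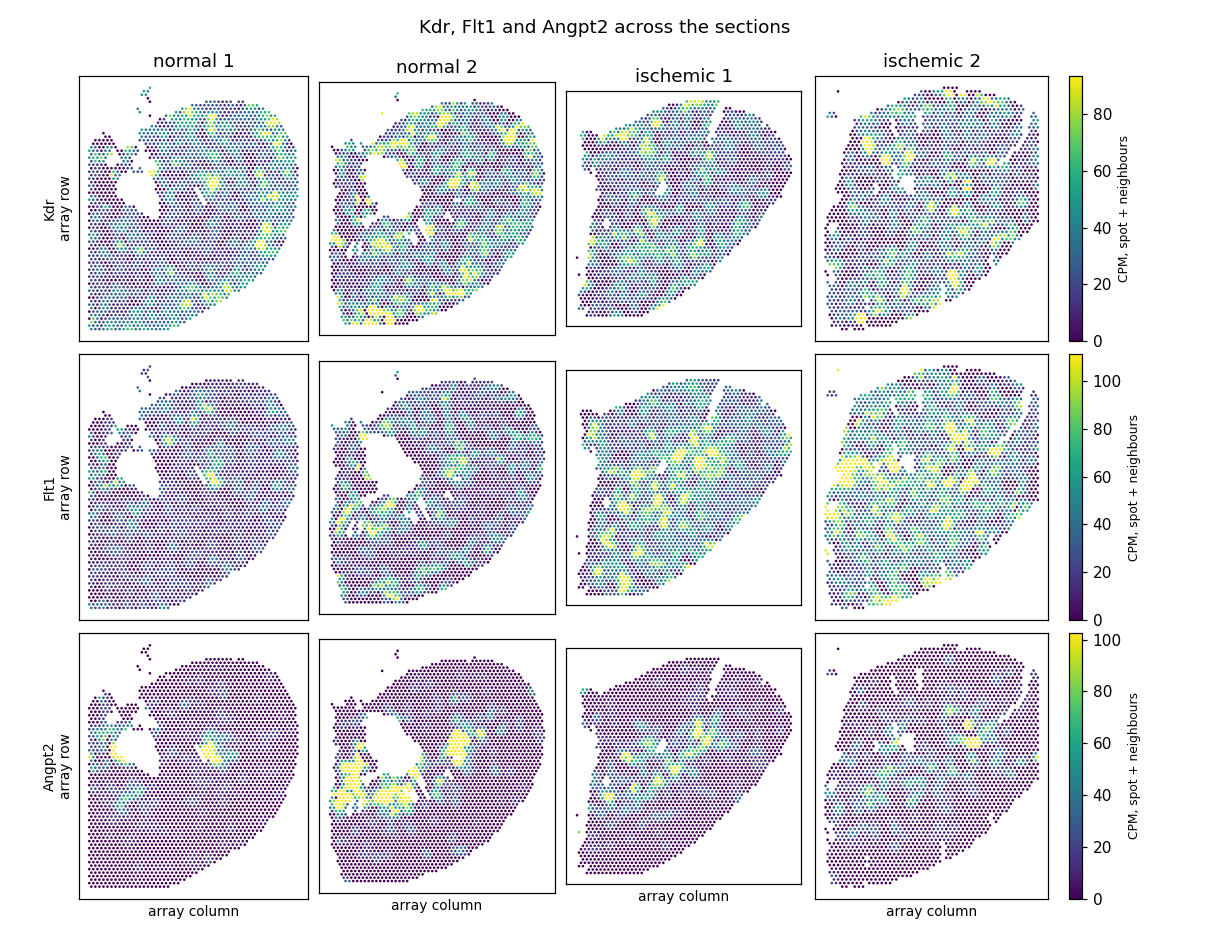
Kdr, Flt1 and Angpt2 (rows) in the spots of the 4 sections (columns), placed by array column and row and coloured by CPM over the spot and its neighbours, with the colour scale of a gene ending at its 98th percentile over all spots. Angpt2 forms patches in the inner part of each section, Kdr is brightest in outer patches of the normal sections, and Flt1 is brighter across both ischemic sections.

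Each zone was next compared between conditions in a fit of its own, scaled on that zone's 4 sums, so that the fitted changes can differ slightly from the CPM above. Tubular markers used for the zones were themselves lower in ischemic sections, where the 6 cortex genes summed to 596 and 555 CPM (unscaled) against 2693 and 2808, so the zones of the 2 conditions may not hold the same tissue. Flt1 was higher in all 4 zones, the lone member to pass in each of them. It was at 24.3 and 26.0 CPM in normal against 36.0 and 40.4 CPM in ischemic cortex (log2 0.62, SE 0.11, adjusted p = 0.000364), at 18.7 and 16.8 against 33.5 and 39.1 CPM in the outer stripe (log2 1.05, SE 0.12, adjusted p = 1.88e-07), and at 25.9 and 29.7 against 48.0 and 44.0 CPM in the inner stripe (log2 0.75, SE 0.17, adjusted p = 0.00752). In the inner medulla the values were 15.6 and 26.6 against 40.9 and 53.9 CPM (log2 1.12, SE 0.28, adjusted p = 0.0202). Normal and ischemic sections did not overlap in any zone, but DESeq2 gave adjusted p of 0.0858 in the inner stripe and 0.0592 in the inner medulla, the inner stripe call was lost without ischemic 1 (adjusted p = 0.108), and the inner medulla call without ischemic 2 (0.0657). The UMI ratio of Flt1 to Kdr was also higher in both ischemic sections in each of the 4 zones, for example 0.526 and 0.582 in normal cortex against 1.24 and 1.33 in ischemic cortex.

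In cortex, 3 members were higher and 4 lower, beside a background of 49.7% of genes called, 25.5% higher and 24.2% lower. Kdr was at 46.3 and 44.7 CPM in normal and at 29.0 and 30.4 CPM in ischemic cortex (log2 -0.60, SE 0.10, adjusted p = 0.000202). Emcn fell as well, from 120 CPM in both normal sections to 86.3 and 85.5 CPM (log2 -0.46, SE 0.09, adjusted p = 0.000941), with an adjusted p of 0.0501 without ischemic 2. Ehd3 (log2 -0.47, adjusted p = 0.0162) and Vegfa (-0.38, adjusted p = 0.0298) were lower, and Plvap (0.36, adjusted p = 0.0191) and Cdh5 (0.44, adjusted p = 0.0348) higher, but these 4 calls were lost with DESeq2, at adjusted p of 0.102, 0.0707, 0.0506 and 0.188, and each was also lost without at least 1 of the sections. Without glomerulus-rich spots, an alternative chosen after the data were seen, the same 7 members passed in the same directions. Among the pan-endothelial genes 5 were higher and 3 lower, with Ecscr at 1.09 and Myct1 at -0.95.

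In the outer stripe, 5 members were higher and 1 lower, beside a background of 67.5%, 34.6% higher and 32.9% lower. Cdh5 was at 11.8 and 14.0 CPM in normal and at 28.5 and 27.5 CPM in ischemic sections, a 2.24-fold rise (log2 1.16, SE 0.13, adjusted p = 1.59e-07). Pecam1 was at 26.7 and 24.7 against 48.6 and 53.8 CPM, a 2.03-fold rise (log2 1.02, SE 0.11, adjusted p = 4.13e-08). Emcn, lower in cortex, was here higher, at 102 and 101 against 126 and 135 CPM (log2 0.39, SE 0.09, adjusted p = 0.00106). Plvap rose by 0.35 on the log2 scale (adjusted p = 0.00329), with an adjusted p of 0.106 without ischemic 2. Vegfa was at 39.4 and 53.6 against 28.3 and 34.2 CPM (log2 -0.53, adjusted p = 0.00159), and Kdr showed no detectable change, at 25.7 and 24.5 against 21.9 and 25.6 CPM (log2 -0.06, 95% interval -0.31 to 0.19). Unscaled, both ischemic values of Kdr lay above both normal ones, at 20.9 and 24.3 against 17.1 and 19.2 CPM. With library size alone the median log2 change of all genes in this zone was 0.42, against 0.05 with TMM. Of the pan-endothelial genes 9 were higher and 1 lower, and neutrophil markers summed to 318 and 326 CPM (unscaled) against 1.22 and 1.11 in normal outer stripe, while those of smooth muscle summed to 412 and 465 against 38.6 and 55.7.

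In the inner stripe, Flt1 was higher and Vegfa and Kdr were lower (background 42.8%, 20.1% higher and 22.6% lower). Vegfa was at 47.1 and 77.8 CPM in normal against 37.3 and 35.6 CPM in ischemic sections (log2 -0.74, adjusted p = 0.0326), and Kdr at 34.4 and 33.6 against 20.8 and 20.01 CPM (log2 -0.72, adjusted p = 0.00890). With scaling the groups did not overlap for either gene, but unscaled those of Vegfa did (38.7 and 86.0 against 45.0 and 42.3 CPM). No member passed with DESeq2, where 3 had an unadjusted p under 0.05. Leaving out either ischemic section also ended the Vegfa and Kdr calls, and without ischemic 1 that of Flt1 was lost too, so that 0 members passed in edgeR (5 at an unadjusted p under 0.05). Angpt2 was at 19.0 and 44.9 against 22.4 and 17.5 CPM (log2 -0.61, 95% interval -1.41 to 0.19). In the inner medulla Flt1 alone passed (background 28.5%, 11.2% higher and 17.2% lower), while Angpt2, at 22.9 and 68.8 against 24.9 and 18.1 CPM, had a log2 change of -1.14 with an adjusted p of 0.0771. With library size alone, the share of called genes that were higher went from 51.4% to 68.0% in cortex, from 51.2% to 69.9% in the outer stripe, from 47.1% to 63.0% in the inner stripe and from 39.4% to 49.7% in the inner medulla. Vegfa then passed in none of these zones and Kdr in cortex alone, at -0.40 (adjusted p = 0.0149). Unscaled, Emcn was at 89.6 and 103 CPM in normal against 80.6 and 79.9 CPM in ischemic cortex, closer than with scaling. In the outer stripe its unscaled values were 67.8 and 79.4 against 120 and 129 CPM.

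**Figure D4:**
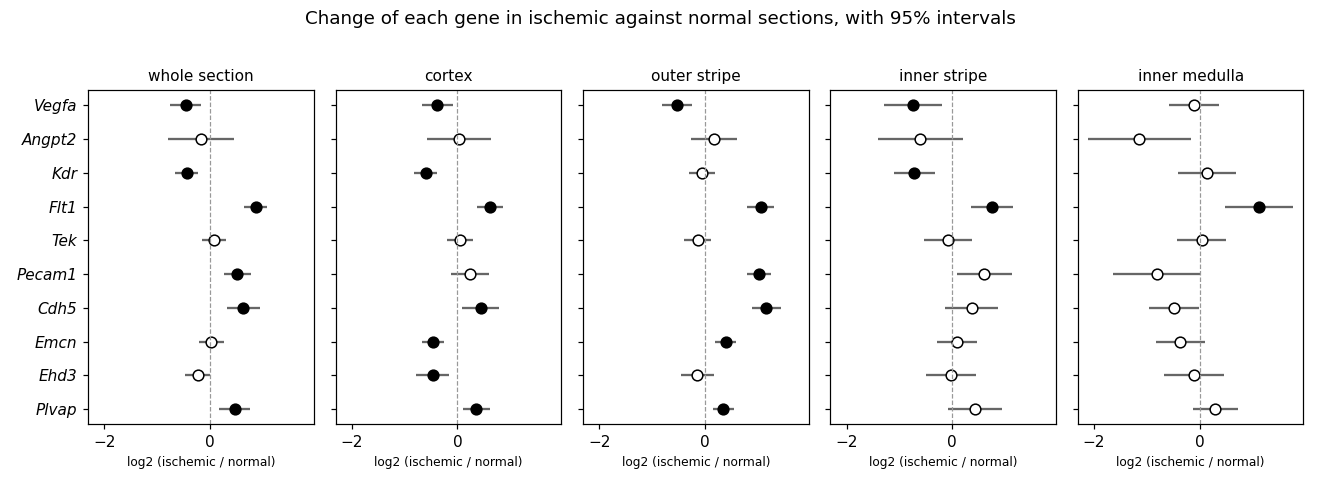
Log2 ratio of ischemic to normal sections for each gene (rows) over the whole sections and in 4 zones (panels), with 95% intervals, filled circles for an adjusted p under 0.05 and open circles for the rest. Flt1 is filled and right of 0 in every panel, Emcn is left of 0 in cortex and right of 0 in the outer stripe, and Kdr is near 0 in the outer stripe.

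Whether a change itself differed between zones was tested as an interaction with section as a block. Between cortex and outer stripe the change differed for 3 members (background 22.1%, 8.24% higher and 13.9% lower). The change of Emcn was higher in the outer stripe than in cortex by 0.84 on the log2 scale (SE 0.18, adjusted p = 0.00166), that of Cdh5 by 0.70 (SE 0.17, adjusted p = 0.00456) and that of Kdr by 0.53 (SE 0.15, adjusted p = 0.0128). Without either ischemic section none of the 3 passed, with 3 members at an unadjusted p under 0.05, while DESeq2 kept all 3. Against the inner stripe 1 member differed (background 18.7%, 5.09% higher and 13.6% lower), Emcn at 0.55 (adjusted p = 0.0390), a call lost without ischemic 1 (0.425), without ischemic 2 (0.277) and without the section block (0.175). Against the inner medulla 2 differed (background 14.7%, 3.56% higher and 11.1% lower), Kdr at 0.75 (adjusted p = 0.0245) and Cdh5 at -0.89 (adjusted p = 0.00575), and neither passed when zones were drawn from each spot alone, at 0.20 and -0.40. Kdr was also lost without normal 2 (adjusted p = 0.162), ischemic 1 (0.265) or ischemic 2 (0.0888), and Cdh5 without ischemic 1 (0.0584) or ischemic 2 (0.150). For Flt1 it was 0.41 between cortex and outer stripe (95% interval 0.04 to 0.79, adjusted p = 0.110), 0.14 for the inner stripe and 0.49 for the inner medulla, none of them past the threshold.

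Glomeruli held several members at high levels in both conditions. Cortical spots rich in glomeruli were found by 4 podocyte genes, none a member, mostly by holding at least 3 of their UMIs, and numbered 84, 80, 71 and 59 in normal 1, normal 2, ischemic 1 and ischemic 2. Ehd3 had the largest contrast, at 70.6, 112, 57.1 and 75.2 CPM in glomerulus-rich spots and at 13.8, 14.5, 9.68 and 11.3 CPM in other cortex of the same sections. The log2 difference was 2.65 in normal sections (SE 0.16, adjusted p = 3.51e-57) and 2.63 in ischemic sections (SE 0.22, adjusted p = 1.32e-31). Kdr was at 95.6, 106, 84.5 and 82.6 CPM against 39.5, 36.6, 22.5 and 25.2 CPM, with log2 differences of 1.39 and 1.83. Emcn was at 230, 225, 175 and 202 CPM against 104, 103, 73.2 and 72.6 CPM, with differences of 1.14 and 1.35. For these 3 genes every glomerulus-rich value lay above every value of other cortex.

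Vegfa, made by podocytes, was at 111, 182, 153 and 185 CPM in glomerulus-rich spots and at 54.3, 71.0, 43.1 and 44.7 CPM in other cortex. Its log2 difference was 1.203 in normal sections and 1.92 in ischemic sections, and the interaction was 0.72 (SE 0.16, adjusted p = 0.00154), the lone member to pass (background 1%, 0.519% higher). Between conditions, Vegfa in other cortex had a log2 change of -0.49 (adjusted p = 0.0035), while in glomerulus-rich spots taken alone it was 0.16 (adjusted p = 0.664), both alternatives chosen after the data were seen. The interaction missed the threshold without normal 1 (adjusted p = 0.148), ischemic 1 (0.174) or ischemic 2 (0.455), and DESeq2 gave an unadjusted p of 0.0078 with no adjusted value.

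In all, 8 of 10 members were higher in glomerulus-rich spots in normal sections (background 21.7%, 7.66% higher) and 8 in ischemic sections (background 11.2%, 5.16% higher). Plvap, at 106, 133, 132 and 196 CPM against 107, 119, 129 and 156 CPM, did not pass in either (log2 0.08, 95% interval -0.14 to 0.29 in normal sections), and neither did Flt1 (0.42, 95% interval 0.02 to 0.83, adjusted p = 0.141). Angpt2, at 12.5 and 6.71 against 2.00 and 2.54 CPM in normal sections, passed with a difference of 2.15, but at 1.38 without normal 1 its adjusted p was 0.357. Counts of Angpt2 in these spots were low, and it was not kept in the test of glomerulus-rich spots alone between conditions. Of the pan-endothelial genes 14 of 18 were higher in each condition, with Cldn5, a tight junction protein, at 2.46 and 2.60. In this fit edgeR estimated 1 spread for all genes and none particular to a gene, so that the p-values are very small for 4 sections. DESeq2 called 5 members in normal sections (Vegfa, Kdr, Emcn, Ehd3 and Angpt2) and 4 in ischemic sections (without Angpt2). With library size alone, the share of called genes that were higher was 85.9% in place of 35.3% (normal) and 83.8% in place of 46.2% (ischemic), and Plvap passed in both.

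**Figure D5:**
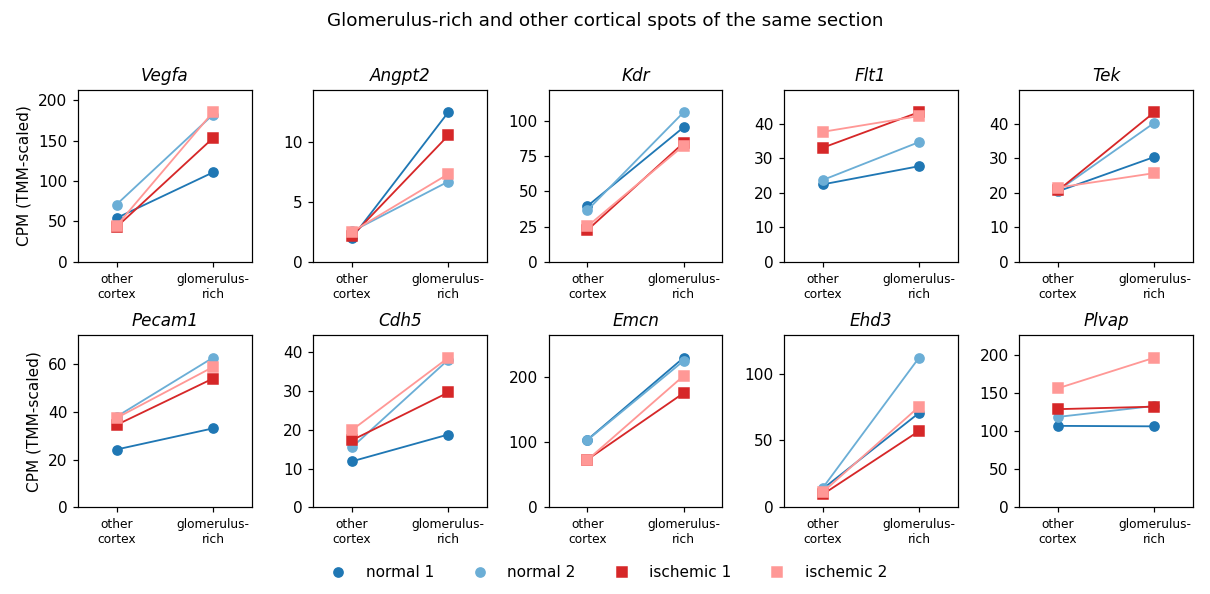
CPM (TMM-scaled, linear axis from 0) of each gene in glomerulus-rich spots and other cortical spots, with a line joining the 2 values of a section, circles for normal and squares for ischemic sections. The lines of Ehd3, Kdr, Emcn and Vegfa climb in all 4 sections, while those of Plvap and Flt1 climb little.

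Spots rich in smooth muscle, found by 4 contractile genes in cortex and outer stripe and numbering 45 to 55 a section, carried another subset in normal kidney. Pecam1 was at 83.6 and 192 CPM there against 22.7 and 26.3 CPM in other spots (log2 2.42, SE 0.18, adjusted p = 2.35e-35), Cdh5 at 28.3 and 54.4 against 10.9 and 13.0 CPM (log2 1.74, adjusted p = 1.47e-08) and Tek at 34.3 and 40.8 against 21.01 and 20.7 CPM (log2 0.83, adjusted p = 0.00889). These were the 3 members called of 10 (background 23.8%, 9.07% higher), of which Tek was lost with DESeq2 (adjusted p = 0.0939) and without normal 2 (0.194), and Emcn was at 71.6 and 77.7 against 99.5 and 98.4 CPM (log2 -0.41, adjusted p = 0.0781). Of 5 arterial genes tested, 4 were higher, with Vwf at 4.93 and Gja5 at 4.25. In ischemic sections 7 members were higher (background 12.3%, 4.7% higher), Emcn among them at 244 and 213 against 89.7 and 96.3 CPM (log2 1.31, adjusted p = 2.93e-16). The interaction was past the threshold for Emcn, at 1.72 (SE 0.22, adjusted p = 2.42e-11), and for Pecam1, at -1.14 (SE 0.24, adjusted p = 0.000241), 2 of 10 members beside 4.25% of all genes, 1.56% higher and 2.69% lower. As in the glomerular fit, the spread was nearly common to all genes, so these p-values too are very small for 4 sections. The class differed between conditions, since in ischemic sections the 4 contractile genes were at 1890 and 2620 CPM in rich spots and 232 and 252 CPM in the others, against 3008 and 6332 and 35.0 and 62.7 CPM in normal sections. Over whole sections Acta2 and Tagln were higher and Myh11 and Cnn1 lower in ischemic kidney. The Pecam1 interaction was lost with DESeq2 (adjusted p = 0.133) and without normal 2 (0.413). With library size alone, the share of called genes that were higher was 73.9% (normal) and 62.0% (ischemic) in place of 38.1% in both.

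Across the 16 sums of 4 zones by 4 sections, some members rose and fell together. These correlations of log2 CPM describe sums that share sections, libraries and depth, and they carry no p. Vegfa and Kdr had a Pearson r of 0.820, Angpt2 and Tek, ligand and receptor, 0.901, Pecam1 and Cdh5 0.824, and Plvap and Tek 0.822, while Flt1 and Kdr were at -0.25. Among the 8810 genes compared, those most like Vegfa were Kcnj10 (0.917) and Lgr4 (0.907), those most like Kdr were Rnf185 (0.881) and Trabd2b (0.876), and that most like Ehd3 was Usp3 (0.846). Plvap was most like Tacc1 (0.962) and Rhob (0.957), and Angpt2 most like Esam (0.97), an endothelial adhesion molecule, and Rem1 (0.957).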

How the data were processed

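RNA of 4 kidney sections was measured by Visium. The authors made the deposited counts (whole UMIs per gene and spot) with Space Ranger 1.3.0 on the mm10 build, and no further normalization. Counts of tissue spots were summed per section, zone or spot class and tested with edgeR 4.0.16 (quasi-likelihood, TMM, filterByExpr) in R 4.3.3, with Benjamini-Hochberg adjustment over all genes tested and a threshold of 0.05. CPM of zones were scaled over all 20 sums of section and zone, and those of spot classes over their 8 sums. Zones were assigned by the highest marker score, standardised within a section, on counts pooled over each spot and at most 6 adjoining ones. Glomerulus-rich spots were cortical spots in the top 15% of podocyte marker share with at least 3 marker UMIs, which left fewer than that percentage, and smooth-muscle-rich spots the top 3% with at least 3 marker UMIs. Intervals are at 95%, and intervals of ratios cover counting error only. Named genes were the members, the list genes with the largest changes or known pathway roles, and the genes most correlated with 5 members. The members and lists were chosen with earlier results of these data known. DESeq2 1.42.0, other filters, scalings, zone rules and class limits, and leaving out each section were tried. The testing code was tested on simulated data. No comparison of the pelvis is reported, but its sums were among the 20 in the model of zones against cortex.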

Additional observations from a re-analysis of the deposited data

Results flagged for a closer look

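The change between conditions differed between places within the kidney for 9 pairs of gene and place, each by an interaction test in edgeR with section as a block. Relative to cortex, the log2 change in the outer stripe was higher by 0.53 for Kdr, 0.84 for Emcn and 0.70 for Cdh5, and that in the inner stripe by 0.55 for Emcn. In the inner medulla it was 0.75 higher for Kdr and -0.89 for Cdh5. The glomerulus-rich excess of Vegfa was larger in ischemic than in normal sections by 0.72. In smooth-muscle-rich spots the difference was -1.14 for Pecam1 and 1.72 for Emcn. Cdh5 in the outer stripe missed the threshold without the section block (adjusted p = 0.0547), and Kdr there with zones drawn from each spot alone (0.101). Emcn in the inner stripe missed it without border spots (0.0741), without the section block (0.175) and without either ischemic section (0.425 and 0.277).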

How the results depend on the processing

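With 2 sections a group, single sections decided many calls. The log2 change of Angpt2 over whole sections turned to 0.41 without normal 2 (-0.61 without normal 1), and that of Vegfa in cortex to 0.16 in glomerulus-rich spots alone. In cortex, 3 members and 4559 genes passed with DESeq2. In glomerulus-rich spots alone 0 members passed (1 at an unadjusted p under 0.05), where 1808 genes were called. In the inner stripe DESeq2 called 0 members (3 at an unadjusted p under 0.05) and 3311 genes, library size alone gave 1 member, and zones from the spot alone 5. In the inner medulla, genes called numbered 1954 with DESeq2 and 5140 in 1 model of all zones, and members 0 with DESeq2 (2 at an unadjusted p under 0.05), 3 in that model, 3 with no filter, 2 with zones from the spot alone and 2 without border spots. For the change against cortex, the outer stripe had 5 members with no filter and 5 with library size alone, the inner stripe 0 without border spots and 0 without the section block, and the inner medulla 4 with no filter and 0 with zones from the spot alone. The top 10% or 20% changed the glomerulus-rich spots little (84 in normal 1 under each), so these settings hardly tested that class. For glomerulus-rich spots DESeq2 called 5 members and 1116 genes in normal and 4 members and 604 genes in ischemic sections. For smooth-muscle-rich spots the count in normal sections was 2 with DESeq2 and 5 with the top 2%, the top 5% or library size alone, that in ischemic sections 4 with DESeq2, and that of the change 4 with the top 5% and 1 with DESeq2. All genes called with DESeq2 for smooth-muscle-rich spots numbered 1610 in normal sections, 822 in ischemic sections and 204 for the change. The cause of the shifts between settings was not tested.

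Leaving out 1 section at a time gave 3 to 8 members and 6493 to 10877 genes over whole sections, 3 to 7 and 4591 to 7690 in cortex, 5 to 6 and 7864 to 9221 in the outer stripe, 0 to 6 and 3081 to 7499 in the inner stripe, and 0 to 3 and 1929 to 4320 in the inner medulla. Against cortex, it gave 4 to 7 members in normal, 1 to 7 in ischemic and 0 to 6 for the change in the outer stripe, 3 to 4, 4 to 9 and 0 to 2 in the inner stripe, and 7 to 8, 4 to 8 and 0 to 3 in the inner medulla. It gave 5 to 8, 4 to 8 and 0 to 1 for glomerulus-rich spots, and 2 to 3, 4 to 7 and 1 to 2 for smooth-muscle-rich spots.

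The replicate numbers of the labels were also used as a replicate block. Deviations of same-numbered sections had a correlation of 0.219, a single value from 2 pairs, which does not settle whether the numbers pair the sections, and the labels tie the numbers to nothing shared. With the block, 10089 genes were called over whole sections against 9279 without it. In the inner stripe 5 members passed beside 5459 of 12334 genes tested, against 3 members and 5276 genes without the block. In the inner medulla 3 members passed beside 3952 of 11416 genes tested, against 1 member and 3250 genes without it. Pecam1 then also passed in cortex (0.27, adjusted p = 0.0333), inner stripe (0.61, 0.0125) and inner medulla (-0.73, 0.00816), and Angpt2 in inner stripe (-0.55, 0.0408) and inner medulla (-1.04, 0.000401). The p-values with the block were very small for so few sections. Flt1 over whole sections had log2 0.86 and SE 0.10 either way. Its adjusted p in edgeR was 6.96e-16 with the block and 7.09e-05 without it. For Pecam1 in the inner medulla the SE was 0.24 with the block and 0.36 without it. The part of pairing in the added calls was not tested.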
